A study of Mus musculus with 2 samples.

Results

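The plasminogen activator system was described here through 6 genes of the 28000 measured in each library, each of which had a row in both. They are the activators Plat and Plau, the receptor Plaur, the inhibitors Serpine2 and Serpinb2, and the plasminogen receptor Plgrkt. Single-cell RNA-seq was performed on prostate tumours of DoubleTg and TripleTg mice, with 1 library per genotype. Both genotypes carried the human HGF transgene (hHGFtg), expressed throughout the body, and a human MET transgene (hMETtg) switched on by PBCre, a Cre recombinase driven by the probasin promoter in prostate epithelium. The TripleTg mice also carried a Ctnnb1 allele that loses exon 3 through the same recombinase and then yields stabilised β-catenin. GEO labels the DoubleTg tissue as adenocarcinoma and the TripleTg tissue as carcinoma of the prostate, and gives neither the age of the mice nor the number of mice per library. With 1 library each, genotype cannot be told apart from animal, dissociation or library, so no test or p-value is given. Intervals in brackets are at the 95% level and reflect counting error alone.

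Plasminogen is a liver-derived zymogen that reaches tissues with the blood, and Plat (tissue-type activator) or Plau (urokinase) cleaves it to plasmin, a protease that dissolves fibrin and attacks extracellular matrix. Plaur anchors urokinase at the cell surface, while serpins such as Serpine2 and Serpinb2 block the activators by forming tight complexes with them. Plasmin and the activators can also process growth factors, and urokinase has been studied as one of several proteases able to activate HGF, so the system is often examined in prostate tumours.

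The 6 genes were measured as unique molecular identifiers (UMIs), each marking 1 captured RNA molecule, and levels are given as CPM, the UMIs of a gene per 1000000 UMIs of its class. With limits on gene number and mitochondrial UMIs, 10598 DoubleTg cells (median 16761 UMIs) and 9492 TripleTg cells (median 20097 UMIs) remained. The libraries shared 30 cell barcodes as deposited and 29 among the kept cells, of which 13 in DoubleTg and 11 in TripleTg were luminal-like. Cell classes were named from marker genes in clusters that were built without the 6 genes, so a class carries "-like" in its name. Luminal-like cells numbered 5106 in DoubleTg and 4993 in TripleTg, with all 8 luminal markers detected in both. Clusters without a class name held 985 shallow and 235 mixed cells in DoubleTg, and 1300 shallow, 162 mixed and 299 epithelial-like cells in TripleTg. Of the shallow TripleTg cells, 323 formed a cluster (median 5804 UMIs) with raised fibroblast markers, none of them among its leading genes. A 3′ count does not carry gene length. Levels are compared mainly within a gene, and an order between genes, where given, is that of CPM as counted.

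On GRCm38, in the GENCODE annotation, Plat lies at chr8:22757727-22782844 on the plus strand and Plau at chr14:20836660-20843385 on the plus strand. Plaur lies at chr7:24462484-24475968 on the plus strand, and Plgrkt at chr19:29348599-29367390 on the minus strand. Serpine2 lies at chr1:79794197-79861180 on the minus strand and Serpinb2 at chr1:107511423-107535478 on the plus strand. All are annotated as protein-coding. The tables of RefSeq start sites held a window for 4 of the 6 genes, Plaur, Serpine2, Serpinb2 and Plgrkt. The sequences just before the starts of Plaur and Serpine2 are shown because these were the receptor and the more abundant of both inhibitors with lower levels in TripleTg luminal-like cells. Plaur at chr7:24462383-24462482 (plus strand) runs up to the base before the start, and Serpine2 at chr1:79858697-79858765 (minus strand) stops 32 bases before it, where an annotated exon begins. For Serpine2 and Plgrkt the RefSeq start lies inside the GENCODE span given above, so the starts of the annotations differ. Capitals mark the AP-1 motif TGANTCA in Plaur and the GC box GGGCGG, whose copies can overlap, in Serpine2.
Plaur: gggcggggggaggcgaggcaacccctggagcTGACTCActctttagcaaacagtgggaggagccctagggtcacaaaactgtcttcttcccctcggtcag
Serpine2: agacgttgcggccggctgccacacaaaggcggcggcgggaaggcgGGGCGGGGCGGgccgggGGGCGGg

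Searched on both strands over the 250 bases before the start, the AP-1 letters occurred in 6.75% of 32851 RefSeq windows, the GC box in 32.7% and the TCF/LEF motif CTTTGAT in 3.21%. The AP-1 match in Plaur began 69 bases before its start. Both Serpinb2 windows, which overlap, held 1 and the same AP-1 match, and those of Serpine2 and Plgrkt held none. GC box matches numbered 6 for Serpine2, 3 for Plaur, 2 for Plgrkt and 0 for Serpinb2. The TCF/LEF letters, the motif read by the partners of β-catenin, were not found in the windows of these 4 genes, which says nothing of sites elsewhere.

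The first comparison asked which cells carried each gene. The class with the highest level differed between the activators. In DoubleTg, Plat was highest in smooth muscle-like cells (919 CPM, 857 to 985), followed by fibroblast-like cells (550 CPM, 535 to 566) and luminal-like cells (319 CPM, 317 to 322). In TripleTg the luminal-like cells came first with 1094 CPM (1089 to 1099), ahead of smooth muscle-like cells at 810 CPM (749 to 875) and fibroblast-like cells at 585 CPM (558 to 614). The next level down in DoubleTg was that of endothelial-like cells, 171 CPM (154 to 190), and every other named class stood at 70.9 CPM or below. Of the 7 TripleTg classes with at least 50 cells, the lowest was seminal vesicle-like, at 180 CPM. The TripleTg dendritic-like class, with 42 cells, was left out of the comparisons.

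A class that should lack a transcript shows how much free RNA the droplets held. In DoubleTg, T and NK-like cells (median 6304 UMIs) served for this, and with each cell thinned to 5000 UMIs, 8.72% (5.78 to 12.5) of them had a Plat UMI against 45.0% (43.6 to 46.4) of luminal-like cells. DoubleTg basal-like cells had 8.87% (7.57 to 10.3), within the interval of the T and NK-like cells. Basal-like cells were deeper (median 12669 UMIs), and thinning dilutes free RNA more in deeper cells, so an equal share does not show background alone. With all UMIs the shares were 18.8% (17.1 to 20.7) in basal-like and 13.7% (10.5 to 17.5) in T and NK-like cells. TripleTg held no T and NK-like class. Its macrophage-like cells (median 9632 UMIs) had a Plat UMI in 44.7% (39.9 to 49.5) of cells, against 9.15% (6.17 to 12.95) in DoubleTg. Of their 1237 Plat UMIs, 38.6% lay in 10 of 485 cells. The luminal-like share was 92.0% (91.2 to 92.7) in TripleTg. The part of free luminal RNA in the Plat levels of the other TripleTg classes was not tested.

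The Plau level was highest in seminal vesicle-like and macrophage-like cells, although the far more numerous luminal-like cells held more of its UMIs in sum (1740 in DoubleTg and 6200 in TripleTg). In DoubleTg it stood at 228 CPM (215 to 241) in seminal vesicle-like cells and 69.6 CPM (62.3 to 77.6) in macrophage-like cells. Luminal-like cells had 8.95 CPM (8.54 to 9.38), among the lowest of the named classes, and T and NK-like cells had 1 UMI in all. In TripleTg the seminal vesicle-like level was 90.1 CPM (86.7 to 93.7) and the macrophage-like level 86.3 CPM (78.9 to 94.2), which could not be ordered by their intervals. Basal-like cells followed with 72.0 CPM (68.4 to 75.7) and luminal-like cells with 41.1 CPM (40.1 to 42.2). At 5000 UMIs, Plau was detected in 3.98% (3.44 to 4.57) of luminal-like cells in DoubleTg and 15.4% (14.4 to 16.4) in TripleTg, and in 0.336% of the T and NK-like cells.

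Plaur, the urokinase receptor, was highest in basal-like cells of both libraries. Basal-like cells had 1189 CPM (1176 to 1203) in DoubleTg and 516 CPM (507 to 526) in TripleTg, and 92.5% (91.2 to 93.7) and 81.8% (79.1 to 84.3) of them had a UMI at 5000 UMIs. Endothelial-like cells came second in DoubleTg, with 727 CPM (691 to 764), and luminal-like cells next, with 392 CPM (389 to 395). In TripleTg the seminal vesicle-like cells followed at 337 CPM (330 to 344), then luminal-like cells at 230 CPM (227 to 232). The TripleTg luminal-like, endothelial-like and macrophage-like levels lay between 213 and 230 CPM. The endothelial-like interval (200 to 238) overlapped those of luminal-like and macrophage-like cells (201 to 225), which did not overlap each other. The lowest level was that of the DoubleTg T and NK-like cells, 50.5 CPM (42.4 to 59.8), with a share of 16.8% (12.7 to 21.5).

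Among the inhibitors, Serpine2 (protease nexin-1, an inhibitor of thrombin and of both activators) was highest in seminal vesicle-like cells, with 1035 CPM (1008 to 1063) in DoubleTg and 621 CPM (612 to 630) in TripleTg. A UMI was present at 5000 UMIs in 93.9% (87.1 to 97.7) and 88.3% (85.4 to 90.9) of these cells. Fibroblast-like and smooth muscle-like cells came next in both libraries, at 304 and 301 CPM in DoubleTg and at 180 and 223 CPM in TripleTg. Luminal-like cells had 145 CPM (143 to 147) in DoubleTg and 15.6 CPM (14.98 to 16.2) in TripleTg. In TripleTg their share of 7.0% (6.30 to 7.76) lay within the interval of macrophage-like cells, 5.58% (3.61 to 8.19). With all UMIs the shares were 26.6% (25.4 to 27.9) and 11.1% (8.48 to 14.3), at medians of 25453 and 9632 UMIs. Thinning dilutes free RNA more in deeper cells, so how much of the luminal-like level was background was not tested.

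Serpinb2, a largely intracellular inhibitor best known from activated macrophages, was rare everywhere. Its highest class was basal-like in DoubleTg, at 8.56 CPM (7.47 to 9.76), and macrophage-like in TripleTg, at 21.2 CPM (17.6 to 25.3). Few cells held these UMIs. In DoubleTg luminal-like cells 99 of 5106 cells had any of the 1173 UMIs, and 57.7% of the UMIs lay in 10 cells. In TripleTg macrophage-like cells 14 of 485 cells had all 123 UMIs. Counting intervals treat UMIs as separate events and so understate the error of such a gene.

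Plgrkt, a plasminogen-binding membrane protein studied mostly in macrophages, was highest in immune classes. In DoubleTg it stood at 84.7 CPM (71.4 to 99.8) in dendritic-like and 68.7 CPM (59.2 to 79.4) in T and NK-like cells, whose intervals overlapped, and at 38.3 CPM (32.9 to 44.4) in macrophage-like cells. In TripleTg the macrophage-like level was 103 CPM (95.3 to 112). Luminal-like cells had 18.1 CPM (17.5 to 18.7) in DoubleTg and 11.7 CPM (11.1 to 12.2) in TripleTg. No class lacked Plgrkt, so no background share can be given for it.

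**Figure D1:**
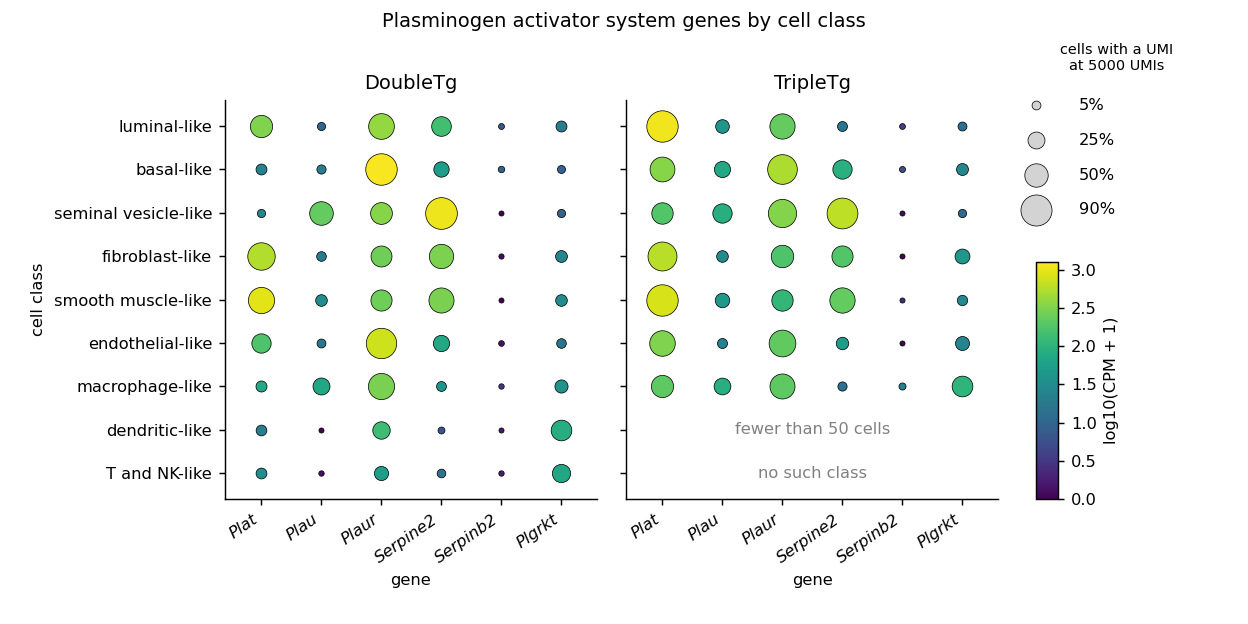
Levels of the 6 genes by cell class in DoubleTg (left) and TripleTg (right), with colour for log10(CPM + 1) and dot area rising with the share of cells that had a UMI at 5000 UMIs. Plaur was highest in basal-like and Serpine2 in seminal vesicle-like cells of both libraries, while Plat was highest in smooth muscle-like cells of DoubleTg and luminal-like cells of TripleTg.

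Across the 16 named classes of both libraries with at least 50 cells, other genes were ranked by how closely they followed each of the 6, by Pearson's r of log2(CPM + 1) among 9293 genes. The classes of a library share its depth and its free RNA, so r is a description. Plat was followed most closely by Mras (r = 0.89), Ccdc34 (0.89) and Kctd11 (0.88). The nearest to Plau were Slc17a5 (0.84), Inpp5f (0.80) and Idh2 (0.78). Plaur was followed by Card10 (0.89), Fam84b (0.88) and Itgb4 (0.86), the last of these a hemidesmosome integrin chain of basal cells. For Serpine2 the nearest were Rcn1 (0.90), Shisa4 (0.88) and B9d1 (0.87), for Serpinb2 Lgals3 (0.82), Med8 (0.82) and Pgd (0.82), and for Plgrkt Mxi1 (0.90), Pcyt1a (0.88) and Plxnc1 (0.88).

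The next comparison asked how evenly the genes were spread within luminal-like cells, which formed 8 clusters in each library. In DoubleTg, Plat ranged from 73.8 CPM in the cluster led by Sbp, a ventral lobe secretory gene, to 663 CPM in the cluster led by Psca and Aldh1a3, with a median of 199 CPM. The cluster led by Prr9 and Tcaf2 had nearly as much, 636 CPM. These 2 clusters also had the highest hMETtg levels, 731 CPM and 863 CPM, and the Sbp cluster had 176 CPM. In TripleTg the Plat range was narrower, from 818 to 1335 CPM with a median of 1081 CPM, and all 8 clusters lay above the highest DoubleTg cluster. How many of all genes separate in this way was not counted, for Plat or for the genes below. Of 9059 genes, 11.8% were at least 2-fold higher in TripleTg luminal-like cells.

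Plaur followed another order in DoubleTg. It was lowest in the Sbp cluster (96.3 CPM) and highest in a cluster of 119 cells led by Gsdmc2 and Gsdmc3, at 1602 CPM (1564 to 1642). That cluster was among the lowest for Plat, with 90.8 CPM, and had the lowest hMETtg level, 51.6 CPM. The Psca cluster came second, with 689 CPM. In TripleTg, Plaur ranged from 156 CPM to 456 CPM, the latter in the cluster led by Reg1. Of the DoubleTg clusters, 3 lay above all of TripleTg, and the ranges overlapped.

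Serpine2 also differed widely among the DoubleTg luminal-like clusters. It was 438 CPM in the Prr9 cluster, 294 CPM in the cluster led by Gm37223 and 230 CPM in the Psca cluster, but 4.96 CPM in the cluster led by Spink5. In TripleTg the range was 6.53 to 29.1 CPM, and 5 of the 8 DoubleTg clusters lay above it. Serpinb2 was concentrated in the Gm37223 cluster of DoubleTg at 45.1 CPM (41.8 to 48.6) and in the Prr9 cluster at 15.3 CPM (13.7 to 17.1), with the other 6 at 1.68 CPM or below. Plau stood between 3.14 and 16.2 CPM in DoubleTg clusters and between 26.5 and 66.3 CPM in TripleTg clusters, without overlap, a separation not counted over all genes. Plgrkt varied least in DoubleTg, from 9.63 to 28.3 CPM.

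**Figure D2:**
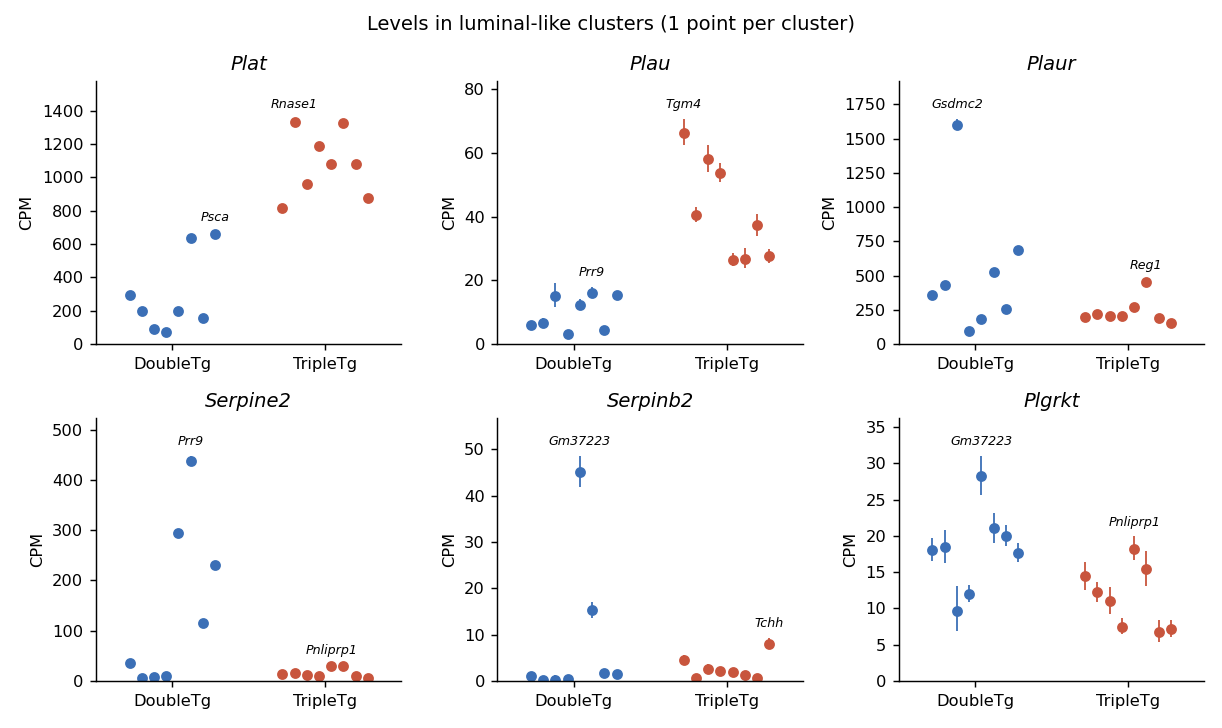
CPM of each gene in the 8 luminal-like clusters of DoubleTg (blue) and TripleTg (red), with exact Poisson intervals as vertical lines and the leading gene of the highest cluster named. Plat and Plau clusters of the libraries did not overlap, a separation not counted over all genes, while Plaur and Serpine2 were highest in clusters of DoubleTg.

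The comparison by hMETtg asked whether the genes differed between luminal-like cells of 1 library with and without a transgene UMI. Each cell was thinned to 5000 UMIs because detection of hMETtg rises with depth, and this left 3230 hMETtg+ and 1520 hMETtg- luminal-like cells in DoubleTg. Their median depths before thinning were 36586 and 35257 UMIs. The hMETtg share of luminal-like cells was 68.0% (66.7 to 69.3) at this depth, against 11.1% (7.75 to 15.2) of T and NK-like cells, so some positive calls can be free RNA and some negative cells carry the transgene undetected.

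Plat was the member with the clearest difference. It stood at 419 CPM in hMETtg+ and 168 CPM in hMETtg- cells, a log2 ratio of 1.32 (1.23 to 1.41), or 2.49-fold. A Plat UMI was present in 53.0% of hMETtg+ and 27.96% of hMETtg- cells. Within clusters the ratio was smaller, 0.78 (0.68 to 0.88) when the 7 clusters with enough cells were weighted by their hMETtg+ cells. It was above 0 in all 7 of them, from 0.61 in the Prr9 cluster to 1.33 in the Spink5 cluster. In the Psca cluster, for example, Plat was 684 CPM in 903 hMETtg+ cells and 446 CPM in 216 hMETtg- cells.

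Serpine2 was 184 CPM in hMETtg+ and 113 CPM in hMETtg- cells, a log2 ratio of 0.70 (0.59 to 0.81). Within clusters this was 0.33 (0.14 to 0.52), with 5 clusters above 0 and 1 below. The one below was the cluster led by Msmb, with 109 CPM in hMETtg+ and 160 CPM in hMETtg- cells. Plaur was 452 CPM and 374 CPM, a ratio of 0.27 (0.21 to 0.34), and within clusters 0.31 (0.23 to 0.39) with all 7 above 0. The pooled Plaur ratio was not stable. It was 0.03 without the Sbp cluster, 0.12 without the Psca cluster and 0.01 when all UMIs were used, and it turned to -0.15 when hMETtg was called before thinning. The pooled Serpine2 ratio was 0.42 without the Sbp cluster.

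Plau, at 11.3 and 8.42 CPM, had a ratio of 0.42 (0.00 to 0.85), and within clusters -0.086 (-0.64 to 0.47), so no direction was detectable at this depth. Serpinb2 had 114 UMIs in hMETtg+ and 18 UMIs in hMETtg- cells, a ratio of 1.58 (0.85 to 2.38). Another random draw of the thinning gave 2.95, so this ratio rests on few cells. Only 2 clusters had enough UMIs for a value of their own. The Gm37223 cluster gave 2.10 (1.21 to 3.104) on 53 and 13 UMIs, and the Psca cluster -1.33 on 5 and 3 UMIs, which with its greater weight made the weighted value -0.70 (-2.40 to 0.99). Plgrkt was 17.8 and 20.8 CPM, with a ratio of -0.22 (-0.51 to 0.07), and within clusters -0.36 (-0.67 to -0.04) with 3 clusters above 0 and 4 below.

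Of the 6 genes, 2 (Plat and Serpinb2) were at least 2-fold higher in hMETtg+ cells, against 0.976% of the 8711 genes that reached 5 CPM on one side or the other, and 0 were at least 2-fold lower, against 0.976%. Leaving the 20 highest genes out of the totals moved the genome-wide split from 85 higher and 85 lower to 70 and 132. The median log2 ratio of all genes was 0.08. Beside these ratios, summed basal markers stood at 265 CPM in hMETtg+ and 499 CPM in hMETtg- cells, with 0 of 7 at 0, and summed luminal markers at 16750 and 14168 CPM. The other marker lists for non-epithelial cells summed to 31.4 CPM or less in either group, and the part of these shifts in the results was not tested.

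**Figure D3:**
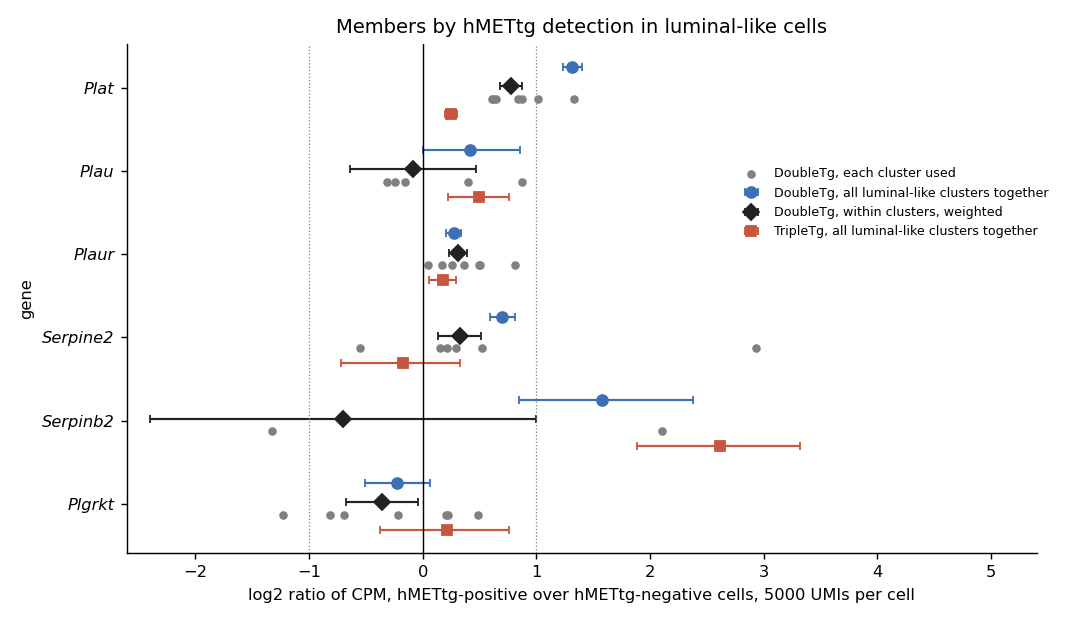
Log2 ratio of CPM between hMETtg+ and hMETtg- luminal-like cells at 5000 UMIs, for DoubleTg with all clusters together (blue), within clusters with weights (black), in each cluster used (grey), and for TripleTg (red), with bars for 95% counting intervals and dotted lines at 2-fold. The DoubleTg Plat ratio fell from 1.32 to 0.78 within clusters and all 7 grey points stayed above 0, while the within-cluster interval of Serpinb2, from 2 clusters, spanned 0.

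The genes were also followed over the number of hMETtg UMIs in a DoubleTg luminal-like cell. Plat was 168 CPM in 1520 cells with 0 hMETtg UMIs, 264 CPM in 742 cells with 1, and 350 CPM in 596 cells with 2. It was 454 CPM in 883 cells with 3 to 4 and 542 CPM (522 to 563) in 1009 cells with 5 or more. Serpine2 went from 113 CPM at 0 through 130, 157 and 186 CPM to 236 CPM (223 to 250) at 5 or more. Plaur was 374 CPM at 0, lower at 1 with 308 CPM, and 584 CPM (563 to 606) at 5 or more. The clusters differ in hMETtg and in these genes at once, so these steps hold differences between clusters too.

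**Figure D4:**
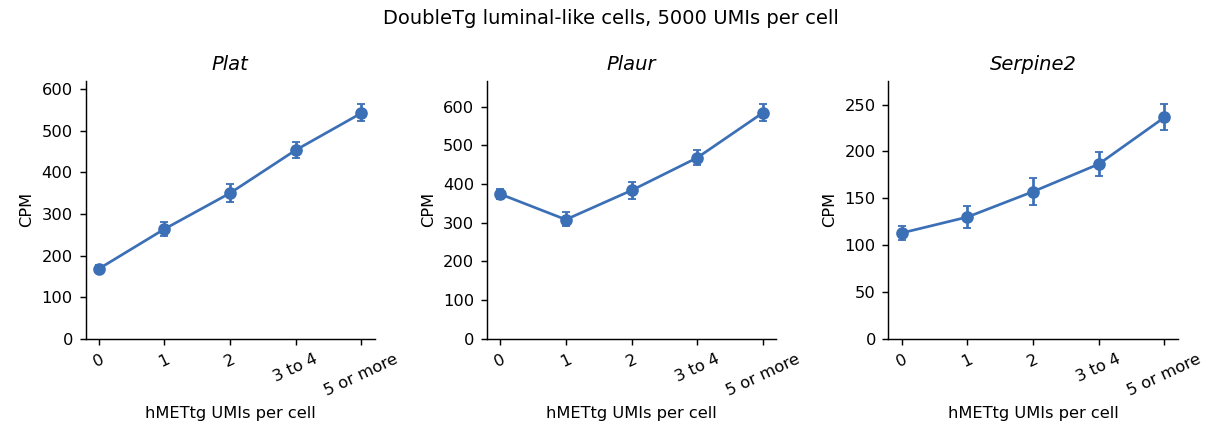
CPM of Plat, Plaur and Serpine2 (vertical axes from 0) by the number of hMETtg UMIs per DoubleTg luminal-like cell at 5000 UMIs, with exact Poisson intervals. Plat was higher at each step, from 168 to 542 CPM, whereas Plaur was lower at 1 hMETtg UMI than at 0.

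In TripleTg the same comparison had 502 hMETtg+ and 4296 hMETtg- luminal-like cells, as hMETtg was present in 10.5% (9.61 to 11.4) of cells. The background in macrophage-like cells was 1.16%. Plat was 1269 CPM and 1065 CPM, a log2 ratio of 0.25 (0.20 to 0.31), above 0 in all 8 clusters, and Plau was 55.4 and 39.2 CPM, a ratio of 0.50 (0.23 to 0.76). Plaur had a ratio of 0.18 (0.06 to 0.30) and Serpine2 of -0.17 (-0.72 to 0.33). Serpinb2 was past 2-fold with 2.61 (1.89 to 3.32), on 30 UMIs in hMETtg+ cells, of which 26 lay in the 1 cluster led by Tchh. Thus 1 of the 6 genes was at least 2-fold higher, against 0.828% of 8578 genes, and 0 were at least 2-fold lower, against 0.851%. The difference of a ratio between libraries was not tested.

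The next comparison set TripleTg against DoubleTg within a class. In luminal-like cells both activators were higher in TripleTg. Plat went from 319 to 1094 CPM, a log2 ratio of 1.78 (1.76 to 1.79), and Plau from 8.95 to 41.1 CPM, a ratio of 2.20 (2.12 to 2.28). The receptor and the inhibitors were lower in CPM. Plaur went from 392 to 230 CPM, a ratio of -0.77 (-0.79 to -0.75), and Serpine2 from 145 to 15.6 CPM, a ratio of -3.22 (-3.28 to -3.16), or 9.30-fold lower. The TripleTg level may be partly background, as said above, which the interval of this ratio does not cover.

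Serpinb2 had a ratio of -1.12 (-1.28 to -0.96), which came to -0.89 at 5000 UMIs and to -0.83 when the DoubleTg Prr9 cluster was left out. This ratio rests on few cells, as 57.7% of the DoubleTg UMIs lay in 10 cells. A UMI was present in fewer DoubleTg than TripleTg cells, 1.94% (1.58 to 2.36) against 2.88% (2.44 to 3.39), though at 5000 UMIs in 0.905% and 0.771%. The median over clusters was also lower in DoubleTg, 1.26 against 2.07 CPM. Plgrkt had a ratio of -0.64 (-0.72 to -0.55). Of the 6 genes, 2 were at least 2-fold higher, against 11.8% of 9059 genes, and 2 at least 2-fold lower, against 12.4%. The median ratio of all genes was -0.00, and -0.14 with the 20 highest genes left out of the totals, which took 21.2% of luminal-like UMIs in DoubleTg and 15.9% in TripleTg. Summed seminal vesicle markers were 94.1 CPM in DoubleTg and 1228 CPM in TripleTg luminal-like cells, fibroblast markers 27.4 and 161 CPM, and neutrophil markers 2.28 and 113 CPM, with 1 seminal vesicle marker, Svs1, at 0 in DoubleTg. Their part in the results was not tested.

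Other classes did not repeat the luminal pattern for every gene. In basal-like cells 3 of the 6 genes were at least 2-fold higher, against 14.9% of 9031 genes, and 1 lower, against 11.9%. Plat went from 22.7 to 339 CPM, a log2 ratio of 3.90 (3.78 to 4.02). The DoubleTg level may be partly background, as said above, which the interval of this ratio does not cover. The TripleTg share of basal-like cells with Plat at 5000 UMIs was 56.7% (53.3 to 60.1), above the macrophage-like 44.7%. The ratio was 1.95 (1.80 to 2.10) for Plau and -1.20 (-1.24 to -1.17) for Plaur. Serpine2 was higher in basal-like cells, from 50.9 to 92.8 CPM, a ratio of 0.87 (0.77 to 0.97), opposite to its luminal-like ratio. Serpinb2 had -0.94 (-1.30 to -0.59), and -1.81 (-2.93 to -0.85) at 5000 UMIs. Plgrkt was also opposite, at 1.55 (1.33 to 1.78) in basal-like cells.

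In fibroblast-like cells none of the 6 genes passed 2-fold, against 11.1% of 10119 genes higher and 7.92% lower, and Plat stood at 550 and 585 CPM, a ratio of 0.09 (0.01 to 0.17) beside a median of 0.04. In smooth muscle-like cells 0 genes were higher past 2-fold, against 14.6% of 10207, and 1, Plaur, was lower, against 19.8%. Plat had a ratio of -0.18 (-0.33 to -0.03) there. Plaur was lower in TripleTg in 6 of 7 classes, most in endothelial-like cells, from 727 to 218 CPM with a ratio of -1.74 (-1.88 to -1.59). It was the 1 gene past 2-fold in these cells, against 13.9% of 9826 genes higher and 8.4% lower. At 5000 UMIs Plat and Plgrkt also passed 2-fold there, at 1.13 (0.78 to 1.49) and 1.35 (0.24 to 2.57). The exception for Plaur was the seminal vesicle-like class, at -0.02 (-0.09 to 0.06) and 0.40 (0.15 to 0.67) at 5000 UMIs, where the median of 8049 genes was -0.49 and the ratio relative to that median was 0.47. In the same class Plau was lower in TripleTg, from 228 to 90.1 CPM, a ratio of -1.34 (-1.44 to -1.24). Measured from the median of all genes this was -0.84, short of 2-fold, and 45.2% of its 1194 DoubleTg UMIs lay in 10 of 131 cells. Plat had a ratio of 2.80 (2.56 to 3.06) there. Its DoubleTg share at 5000 UMIs, 4.08% (1.12 to 10.1), was not above that of T and NK-like cells, with 88.9% of 135 UMIs in 10 cells. The TripleTg Plat share, 41.5% (37.3 to 45.7), did not exceed that of macrophage-like cells. With all UMIs it was 85.2% (82.3 to 87.9) against 62.3% (57.8 to 66.6) in macrophage-like cells, at unlike medians of 37359 and 9632 UMIs. The part of background in these Plat levels was not tested. Plau and Plat were the 2 past 2-fold before any shift for the median, against 5.02% of genes higher and 20% lower. In macrophage-like cells Plgrkt went from 38.3 to 103 CPM, a ratio of 1.43 (1.19 to 1.68), while Plau, at 69.6 and 86.3 CPM, had a ratio of 0.31 (0.11 to 0.52) that became -0.06 (-0.38 to 0.26) at 5000 UMIs. There 3 of the 6 were at least 2-fold higher (Plat, Serpinb2 and Plgrkt), against 9.62% of 9220 genes, and 1, Serpine2, was lower, against 7.36%, with a median of 0.12 over all genes. At 5000 UMIs the Serpine2 ratio was -0.73 (-1.51 to 0.04) and no longer past 2-fold, and 75.1% of its 185 DoubleTg UMIs lay in 10 cells. The DoubleTg Plat UMIs of this class were as concentrated, with 76.6% of 333 in 10 cells, and all 11 DoubleTg Serpinb2 UMIs lay in 2 cells.

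**Figure D5:**
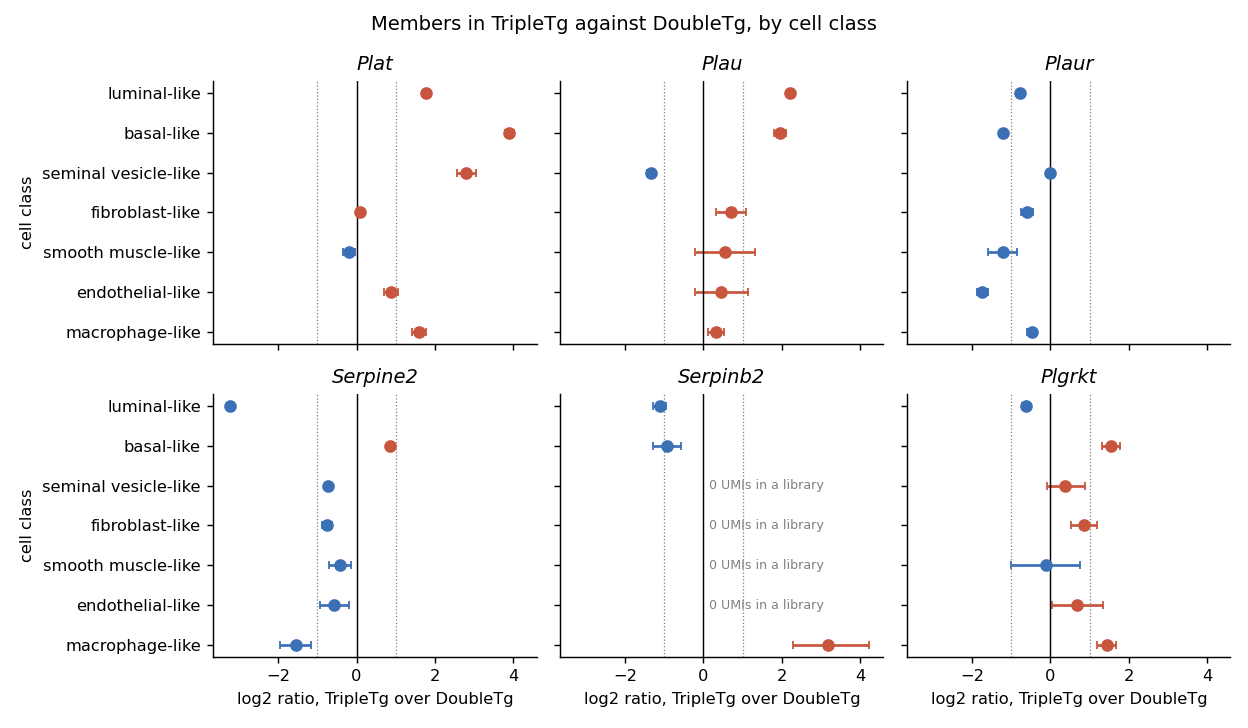
Log2 ratio of CPM in TripleTg over DoubleTg for each gene in 7 cell classes, with 95% counting intervals and dotted lines at 2-fold, drawn red above and blue below 0. Plat was higher in TripleTg in 5 of 7 classes, most in basal-like cells, and near 0 in fibroblast-like cells, and Serpine2 was lower in luminal-like but higher in basal-like cells.

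Activator and receptor were also counted in the same cell at 5000 UMIs. In DoubleTg luminal-like cells 189 cells had a Plau UMI, and 85.7% (79.9 to 90.4) of them also had Plaur, against 59.8% (58.4 to 61.2) of the 4561 cells without Plau. In TripleTg luminal-like cells these shares were 65.2% (61.6 to 68.6) of 738 cells and 57.4% (55.9 to 58.9) of 4060. Cells with Plau and Plaur together made up 3.41% of luminal-like cells in DoubleTg and 10.0% in TripleTg. Serpine2 was present in 44.6% (42.5 to 46.8) of DoubleTg luminal-like cells with Plat and 26.3% (24.6 to 27.99) of those without. The DoubleTg clusters differ in these genes at once, so such shares hold differences between clusters too. In TripleTg, where its share may be partly background, these values were 6.96% (6.22 to 7.75) and 7.53% (5.10 to 10.6). In TripleTg macrophage-like cells Plaur was present in 62.9% (52.9 to 72.1) of cells with Plau and 55.7% (50.1 to 61.2) of those without, intervals that overlapped.

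The wider pathway list held 19 further genes of the plasmin system, from the substrate Plg to inhibitors, surface binding proteins and related proteases. In the hMETtg comparison 7 of them reached 5 CPM in DoubleTg luminal-like cells, with a median log2 ratio of 0.31. None of the 7 was 2-fold higher or lower, against 0.976% of 8711 genes in each direction. Between the libraries, 9 genes of the list reached 5 CPM in luminal-like cells. Among those reported here, Lrp1 and Hpn were at least 2-fold higher in TripleTg, against 11.8% of 9059 genes. In the whole list 0 genes were at least 2-fold lower, against 12.4%.

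Lrp1, a scavenger receptor that clears activator and inhibitor complexes, went from 1.34 to 11.8 CPM, and Hpn (hepsin), a membrane serine protease able to activate HGF and urokinase, from 4.45 to 24.5 CPM. The list genes with the highest levels in any class were S100a10 and Anxa2, which together form a plasminogen-binding complex, and Serping1, an inhibitor of complement and plasma kallikrein. S100a10 stood at 2409 CPM and Anxa2 at 2331 CPM in DoubleTg basal-like cells, the class with the highest Plaur, and at 1611 and 1324 CPM in TripleTg basal-like cells. Serping1 reached 1744 CPM in DoubleTg and 1964 CPM in TripleTg fibroblast-like cells.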

How the data were processed

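The deposited matrices hold UMI counts per gene and cell, not normalised. Per the methods, the authors ran Cell Ranger on the mm10 genome extended by both transgenes. The submitters' processing notes name Cell Ranger 6.0.2, and the header of the DoubleTg matrix names 6.1.1. Kept were cells with more than 200 but fewer than 7000 genes and a mitochondrial share below 15%, 10598 of 12072 in DoubleTg and all 9492 in TripleTg. As deposited, TripleTg cells had at most 6995 genes and a mitochondrial share of at most 14.999%, while DoubleTg cells reached 8876 genes and 88.6%. The TripleTg matrix thus already met these limits, and the study's text gives 9492 TripleTg cells after its filtering. For DoubleTg the study's text gives fewer kept cells than these limits leave. Each library was clustered alone with scanpy 1.11.5 (2000 variable genes, 20 components, 15 neighbours, Leiden resolution 1), without the 6 genes, the pathway list and the transgenes. A class needed 3 raised markers and a mean log2 fold of 2, or 1.5 with a marker among the top 10 genes. A cluster with a median depth far below that of its library also needed a marker among the top 10, or was called shallow. Basal-like clusters needed a mean marker share of 0.6, and luminal-like clusters 5 luminal markers in 0.5 of cells. These thresholds were revised after clusters were seen, and the study's own cell names may differ. No doublets were removed. The caller's own threshold marked 2.51% of DoubleTg and 0% of TripleTg cells, so an alternative left out the 8% of cells with the highest scores in each.

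UMIs were summed per class and divided by its total to give CPM, with exact Poisson intervals, exact binomial (Clopper-Pearson) intervals for shares and conditional binomial intervals for log2 ratios. Within-cluster ratios needed 20 cells and 3 UMIs on each side. A gene was counted as higher or lower past 2-fold, with at least 5 CPM in either group. hMETtg+ cells had at least 1 hMETtg UMI after thinning to 5000 UMIs. In simulated luminal-like sums of 8371 genes, 167 of 200 changed genes were recovered within 0.2 (log2) and 95.5% of intervals held the true value. TMM factors came from edgeR 4.0.16. Named genes were the 6, the pathway genes past 2-fold and the 3 highest, and the 3 nearest by likeness. Plg was added after its values were seen. The members and lists were chosen with earlier results of these data known. The study's own integration and tests were not used here. Of the pathway list, 1 gene is not reported here.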

Additional observations from a re-analysis of the deposited data

How the results depend on the processing

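No paired analysis was possible because each genotype had 1 library and no result came from a test. The count of 2 genes at least 2-fold higher in hMETtg+ luminal-like cells became 1 over all epithelial-like cells, 1 in TripleTg and 0 within clusters, and stayed at 2 under the other alternatives run. Over all epithelial-like cells the log2 ratio turned to -0.17 for Plau, -0.73 for Plaur and 0.34 for Plgrkt (also 0.04 with all UMIs), within clusters to -0.086 for Plau and -0.70 for Serpinb2 (from 2 clusters of opposite sign), with hMETtg called before thinning to -0.15 for Plaur, and in TripleTg to -0.17 for Serpine2 and 0.22 for Plgrkt. The Plat ratio stayed positive in all 17 alternatives within DoubleTg, between 0.78 within clusters and 2.17 over all epithelial-like cells. The count of 2 genes at least 2-fold lower in TripleTg luminal-like cells became 1 over all epithelial-like cells, at 5000 UMIs, in hMETtg+ cells and without the DoubleTg Prr9 cluster, and 3 at a Leiden resolution of 0.5. In all 10 alternatives each of the 6 genes kept its direction between the libraries. Serpine2 ranged from -3.49 to -0.56, the latter over all epithelial-like cells. Alternatives that left out 1 cluster were chosen after seeing the data. Low counts limit the hMETtg ratios of Serpinb2, Plau and Plgrkt, and the cause of these shifts was not tested.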

Other observations

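Plg, the substrate of the system, had 0 UMIs in all 9 named DoubleTg classes, which in luminal-like cells allows up to 0.019 CPM by the exact Poisson interval. In TripleTg it was found at low levels, with 130 UMIs (0.863 CPM, 0.721 to 1.02) in luminal-like cells, 31 UMIs in basal-like cells and 15 UMIs (2.59 CPM, 1.45 to 4.27) in macrophage-like cells. Its level was highest in the TripleTg shallow clusters, at 6.14 CPM (4.37 to 8.39), and Fgb, Fgg, Apoa1 and Alb, all known from liver, were among the 10 leading genes of 1 of them, with 491 cells. The part of liver RNA in the Plg values was not tested. The TripleTg cells in shallow clusters without a class name had 924 CPM of Plat and 221 CPM of Serpine2; the smooth muscle-like cells had 810 and 223 CPM and the luminal-like cells 1094 and 15.6 CPM. The 299 TripleTg epithelial-like cells without a class name had 11.1 CPM of Serpinb2, above the 4.46 CPM of the basal-like cells.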
